A study of Homo sapiens with 9 samples.

Results

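The replication-dependent histone genes are the genes whose symbols begin with HIST1H, HIST2H, HIST3H or HIST4H. In the table of RefSeq transcripts 72 of 21417 gene symbols match, held in 74 of 38759 rows, and each was represented by its row with the highest mean over all libraries. They comprise 6 H1, 17 H2A, 20 H2B, 14 H3 and 15 H4 genes. By cluster, 55 are HIST1 genes, 13 HIST2, 3 HIST3 and 1 HIST4. Levels are in RPKM (reads per kilobase of transcript, scaled to library size). Of the members 69 averaged 0.5 RPKM or more and were tested, while HIST1H2BA, HIST2H2BA and HIST1H4G lay under that minimum. Membership follows from the symbol.

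All libraries came from H9, an established line of human embryonic stem cells (hESC). Undifferentiated H9 cells (day 0) were grown on Matrigel in the medium mTeSR1. Neuroectoderm, the precursor of the nervous system, was derived over 5 days with 200 nM NOGGIN, which blocks BMP ligands, and 10 µM SB431542, an inhibitor of activin and Nodal receptors. Mesendoderm, the precursor of mesoderm and endoderm, was derived over 5 days in mTeSR1 with hBMP4 at 5 ng/ml. Each of the 3 groups has 3 libraries. They represent 1 cell line. Whether the 3 libraries of a group are separate cultures is not stated in the labels, so the p-values cover the spread among these libraries and that spread may be technical. The series title names a link between the cell cycle and neuroectoderm fate.

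Nucleosomes are spools of DNA around pairs of the core histones H2A, H2B, H3 and H4, and the linker histone H1 binds where DNA enters and leaves the spool. Replication-dependent genes supply the bulk of these proteins while DNA is copied. They lie in clusters of short genes without introns, and most of their messenger RNAs end not in a poly(A) tail but in a stem-loop that is bound by the protein SLBP and cut with the help of the U7 small nuclear RNA. When replication stops, these RNAs are quickly degraded. Libraries here were made from total RNA depleted of ribosomal RNA, so that RNA without a poly(A) tail was not selected against by an oligo(dT) step.

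The stem-loop could be read from 30 of the 36 members whose GENCODE 29 transcript holds at least 40 bases after the stop codon. It was searched as a perfect 6-base stem that begins GG around a 4-base loop that begins TT, and lay 22 to 67 bases after the stop codon (median 35.5). Of 19598 other protein-coding genes, 89 (0.454%) hold the same pattern anywhere in a coding transcript. The 7 copies below are shown because they belong to described members of each core class, with stem and loop in capitals, 5′ to 3′, as DNA letters.
HIST1H2AE: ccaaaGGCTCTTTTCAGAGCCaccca
HIST1H2BC: ccaaaGGCTCTTTTAAGAGCCaccca
HIST1H3G: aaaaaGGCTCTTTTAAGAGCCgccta
HIST2H2AA4: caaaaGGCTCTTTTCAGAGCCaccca
HIST2H3C: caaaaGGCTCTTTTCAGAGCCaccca
HIST1H4E: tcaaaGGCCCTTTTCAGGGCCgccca
HIST4H4: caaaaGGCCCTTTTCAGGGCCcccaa
The stem was GGCTCT in all 22 H2A, H2B and H3 genes read and GGCCCT in all 8 H4 genes read. None was read in the H1 genes, of which only 2 have 40 bases after the stop codon in those transcripts. HIST2H2AA4 and HIST2H3C, members of different classes, hold the same 26 letters.

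Copies within a class differ in how close they are. The reading frames of 15 H4 genes translate to 2 proteins, 14 of the genes encoding the same 103-residue protein, although 13 different coding sequences were found among them. The 14 H3 genes encode 3 proteins and 10 share the commonest. By contrast, the 17 H2A genes encode 11 proteins, the 18 coding H2B genes 14 and the 6 H1 genes 6. Of 70 coding members, 33 share no 50-base stretch of their coding sequence with a transcript of another gene. For 10 members at least 90% of such stretches occur in another gene. They are the copy pairs HIST2H2AA3 and HIST2H2AA4, HIST2H3A and HIST2H3C, HIST2H4A and HIST2H4B, HIST1H4J and HIST1H4K, plus HIST1H2AD and HIST1H3D. HIST1H2AD and HIST1H3D overlap in the annotation but share their stretches with a further annotated gene, not with each other. HIST1H2AD also shares stretches with HIST1H2AL. How reads that fit several places were counted is not given in the sources used here, so the values of these 10 are uncertain. The same holds in part for members with fewer shared stretches. HIST2H2BC has no coding sequence here and was given no share of its own, but coding H2B genes share stretches with it. Its values are uncertain too.

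The libraries separated by cell type, with Pearson correlations of 0.933 to 0.992 within and 0.814 to 0.931 between groups over tested genes. RPKM denominators read from the steps of low values were 36900000 to 70300000 reads. At that depth 100 RPKM on a 500-base transcript equals 1847 to 3517 reads, and 3 reads equal 0.0853 to 0.162 RPKM, which covers counting error only. Of the marker lists, 5 of 7 hESC genes fell in neuroectoderm and 6 of 7 in mesendoderm, all 5 tested neuroectoderm genes rose in neuroectoderm, and all 7 mesendoderm genes rose in mesendoderm. Markers of trophoblast or amnion also rose in mesendoderm, 6 of 6 tested, among them KRT7 from 5.91 ± 1.5 to 26.3 ± 2.79 RPKM and CDX2 from 0.02 ± 0.01 to 13.6 ± 6.89 RPKM (mean ± SD, n = 3). The summed RPKM of that list of 7 was 5.21 to 7.38 in hESC, 1.19 to 1.48 in neuroectoderm and 65.8 to 96.1 in mesendoderm, with no gene at 0 throughout a group, and its part in the histone results was not tested. The 5 neuron markers summed to 24.9 to 49.4, 96.7 to 105 and 17.9 to 22.5 RPKM. In neuroectoderm MAP2 made up 82.9 to 89 RPKM of this and rose, while TUBB3 fell from 35.6 ± 14.6 to 11.5 ± 7.97 RPKM, and the part of neurons was not tested either. hESC replicate 2, neuroectoderm replicate 1 and mesendoderm replicate 1 stood apart from the other libraries of their groups in base composition. They also had the lowest summed histone level of their groups, as described next to the results they touch.

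Histone RNA was among the most abundant RNA in all 3 cell types. Leaving out small RNA genes, 11 of the 100 genes with the highest mean RPKM in hESC were members, 22 in neuroectoderm and 15 in mesendoderm, out of 13731 genes ranked. Between 41 and 44 members averaged over 100 RPKM in each group, while 13 to 16 stayed under 5 RPKM. Summed over all 72 genes, hESC libraries 1 to 3 held 18680, 8601 and 12400 RPKM, neuroectoderm 9765, 20560 and 19590 RPKM, and mesendoderm 11280, 19650 and 15400 RPKM. The ranges of the groups overlap. In neuroectoderm, replicate 1 lies far under the other libraries, while the hESC and mesendoderm libraries are spread out with no single low value. The log2 ratio of mean sums was 0.33 for neuroectoderm against hESC, with a replicate SD of 0.58, and 0.22 for mesendoderm against hESC, with an SD of 0.49. Neither difference exceeded the spread between libraries.

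**Figure D1:**
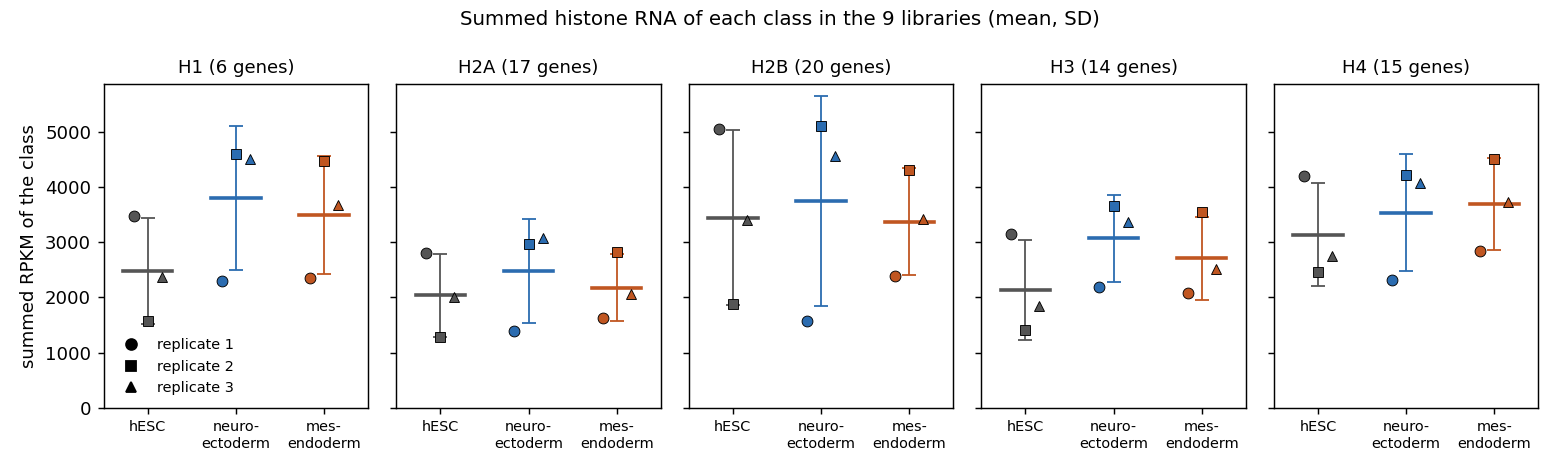
Summed RPKM (linear axis from 0) of the 5 histone classes in each library, with symbols for replicates, a line at the mean and SD bars over 3 libraries. In each class the values of the 3 groups overlap, and hESC replicate 2, neuroectoderm replicate 1 and mesendoderm replicate 1 are the lowest of their groups.

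By class, the sums in neuroectoderm against hESC had log2 ratios of 0.62 for H1, 0.53 for H3, 0.29 for H2A, 0.17 for H4 and 0.12 for H2B. The replicate SDs of these ratios were 0.57, 0.50, 0.60, 0.45 and 0.84. Only those of H1 and H3 were larger than their SD, and by little. In mesendoderm against hESC the ratios were 0.50 for H1, 0.35 for H3, 0.24 for H4, 0.10 for H2A and -0.03 for H2B, with SDs of 0.52, 0.50, 0.37, 0.49 and 0.59. None of these 5 exceeded its SD. H1 and H3 headed the order in both lineages, and H2B came last, but no class sum of the 3 groups was free of overlap. In bulk RNA, a changed share of cells in S phase and changed histone RNA per cell cannot be told apart.

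The 3 libraries that stood apart carried the lowest histone values. Of 69 tested members, 62 were lowest of their group in hESC replicate 2, 63 in neuroectoderm replicate 1 and 61 in mesendoderm replicate 1. Among the 14404 other tested genes the same libraries were lowest for 45.1%, 57.9% and 40.6%. The median member lay 0.58, 0.80 and 0.44 under its group mean in these libraries on the log2(RPKM + 1) scale, against 0.02, 0.10 and 0.01 for other genes. HIST1H4C alone among the tested members was not the lowest in any of the 3, with 758 RPKM in hESC replicate 2 against 604 and 681, 768 in neuroectoderm replicate 1 against 751 and 903, and 595 in mesendoderm replicate 1 against 538 and 838. hESC replicate 1 deviated as far upward as hESC replicate 2 did downward, with a member median of 0.625.

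Base composition moved with the same libraries. Across 13805 other tested genes, the Spearman correlation of a gene's deviation with the GC content of its transcript was -0.62 in hESC replicate 2, -0.56 in neuroectoderm replicate 1 and -0.29 in mesendoderm replicate 1, and 0.19 to 0.59 in the other 6 libraries. Genes are not independent replicates, and the values of a library share its preparation. Histone coding sequences were GC-rich, with a median of 60.9% (48.3% to 67.7%, 68 members) against 49.7% for whole transcripts of other genes. In 1790 other genes with 58.5% to 62.8% GC, the middle range of the members, the medians were -0.18, -0.34 and -0.07 in the 3 libraries. The members' median deviations were larger than these. GC was taken from coding sequences for members and from whole transcripts for other genes, so the match is not like for like. The part of GC in the low histone values was not tested. Within the members the correlations with GC were weak, between -0.22 and 0.19.

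**Figure D2:**
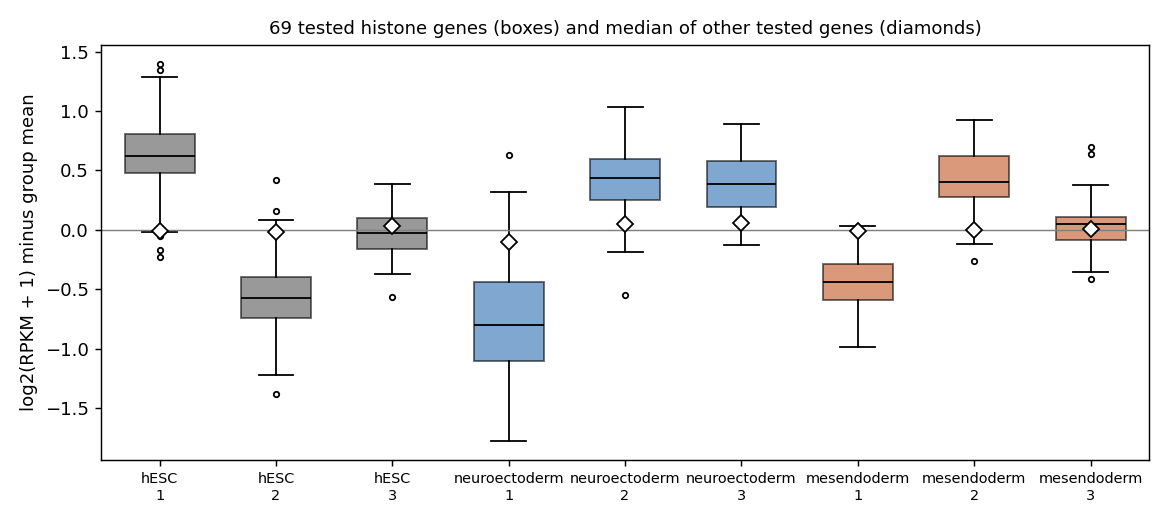
Deviation of each of the 69 tested histone genes from its group mean (log2(RPKM + 1)) in the 9 libraries, as boxes (quartiles, whiskers to 1.5 interquartile ranges, points beyond) coloured by cell type, with diamonds at the median of the other tested genes. The boxes of hESC replicate 2, neuroectoderm replicate 1 and mesendoderm replicate 1 lie under 0 at medians of -0.58, -0.80 and -0.44, while the diamonds stay near 0.

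Gene by gene, 9 of the 69 members passed the test in at least 1 comparison. In neuroectoderm against hESC 3 members rose (HIST1H1C, HIST1H3B, HIST2H2AA4) and 4 fell (HIST1H1A, HIST1H2BB, HIST1H3C, HIST2H2BC) out of 69, 4.35% and 5.8%, where 21.9% of all 14473 tested genes rose and 22.3% fell. In mesendoderm against hESC 4 rose (HIST1H1C, HIST2H2AA4, HIST2H3C, HIST4H4) and 3 fell (HIST1H1A, HIST1H2BB, HIST2H2BC), against 17% and 18.1% of all genes. In neuroectoderm against mesendoderm none was higher and 1, HIST4H4, was lower, against 24% and 24.1%, and no member was higher at an unadjusted p under 0.05 with limma. Both comparisons with hESC share the hESC libraries. The median log2 difference of the members was 0.14, 0.28 and -0.06 in the 3 comparisons, against -0.02, -0.02 and -0.01 for all tested genes, and 91.3%, 97.1% and 94.2% of members lay within 1 log2 unit of no change.

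Without the 3 libraries that stood apart more members were called. These libraries were set apart partly by histone level, so the members' own values entered the choice and the added calls are no separate support. In neuroectoderm against hESC 9 rose and 9 fell (background 30.7% and 27.5% of all genes). In mesendoderm against hESC 6 rose and 7 fell (22.8% and 24.3%), and in neuroectoderm against mesendoderm 2 were higher and 6 lower (32.3% and 28.1%). The members' shares were 2.9% to 13%. Their median log2 differences became 0.27, 0.16 and 0.07, so that the larger median was then that of neuroectoderm and the third changed sign (all genes 0.03, -0.03 and 0.04). Those added in neuroectoderm against hESC were HIST1H1D, HIST2H2AB, HIST1H2AA, HIST1H2AB, HIST1H2AI and HIST1H2BJ among the higher genes and HIST3H2A, HIST3H2BB, HIST3H3, HIST1H1T and HIST1H2AK among the lower ones.

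**Figure D3:**
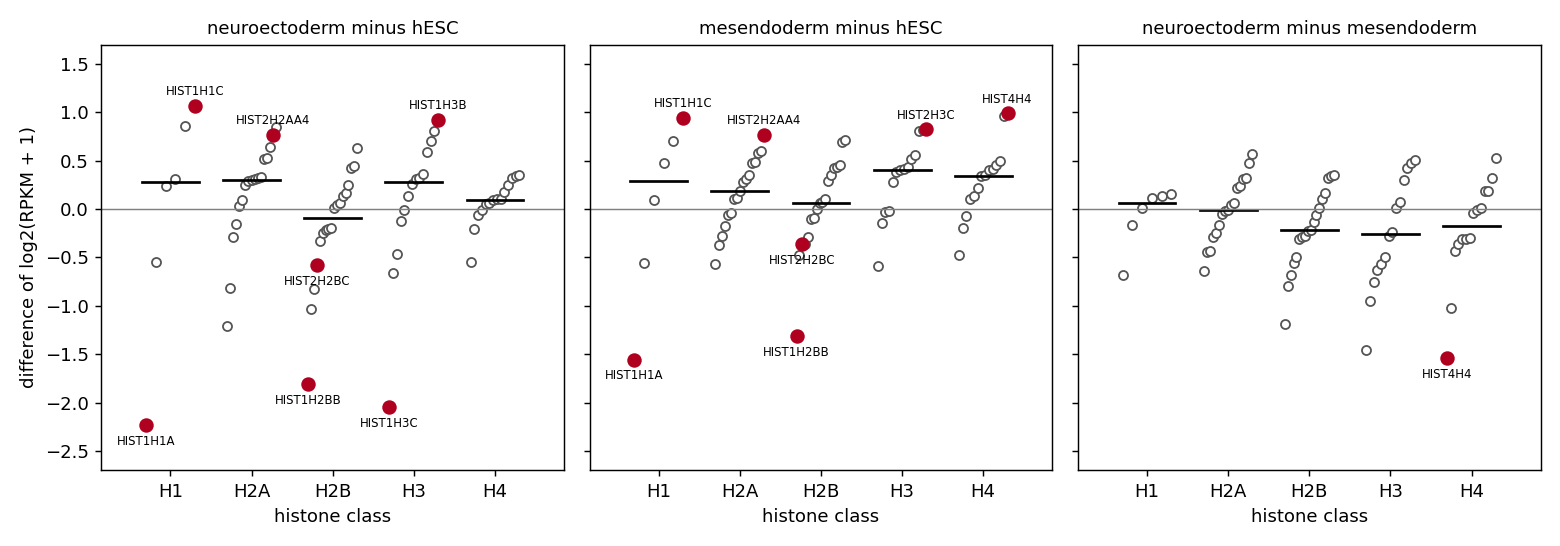
Differences of mean log2(RPKM + 1) of the 69 tested histone genes in 3 comparisons, sorted within each histone class, with a line at the class median. Red points passed limma's test at an adjusted p under 0.05 and are named; most open points lie within 1 log2 unit of 0, and the lowest named points are HIST1H1A, HIST1H3C and HIST1H2BB.

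In neuroectoderm the linker histone genes held both the lowest and the highest log2 difference of the members, HIST1H1A and HIST1H1C. HIST1H1C, which encodes H1.2 and is also made as a polyadenylated RNA, had 703, 473 and 624 RPKM in hESC, 1050.0, 1518 and 1195 RPKM in neuroectoderm, and 904, 1317 and 1251 RPKM in mesendoderm. Every library of both lineages lay above every hESC library. Its log2 difference was 1.06 ± 0.27 (SE, adjusted p = 0.0115) in neuroectoderm and 0.95 ± 0.27 (adjusted p = 0.0245) in mesendoderm. The second call was lost when hESC replicate 2 or 3 or mesendoderm replicate 2 or 3 was left out (adjusted p = 0.0827, 0.0641, 0.0836 and 0.0931).

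HIST1H1A, which encodes H1.1, fell in both lineages. It had 7.66, 3.26 and 4.34 RPKM in hESC, 0, 0.47 and 0.28 RPKM in neuroectoderm, and 0.38, 2.12 and 0.8 RPKM in mesendoderm. The groups of derived cells lay wholly under hESC, and neuroectoderm replicate 1 is listed at 0, where 3 reads on 500 bases would give 0.147 RPKM. The log2 difference was -2.24 ± 0.34 (adjusted p = 0.00068) and -1.56 ± 0.34 (adjusted p = 0.0067), and neuroectoderm and mesendoderm overlapped (adjusted p = 0.126).

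The most abundant H1 gene, HIST1H1B (H1.5), did not pass in either lineage, at 986 ± 423 RPKM in hESC, 1160 ± 476 in neuroectoderm and 1020 ± 311 in mesendoderm. Within the summed H1 RNA its share was 40.2%, 35% and 42.3% in hESC, 26.9%, 29.4% and 33.5% in neuroectoderm, and 29.2%, 29.2% and 28.8% in mesendoderm. The shares of both lineages lay under every hESC share. HIST1H1D (H1.3) averaged 437 ± 221, 800 ± 357 and 713 ± 324 RPKM with overlapping groups. Its rise in neuroectoderm passed only without the 3 libraries that stood apart (log2 difference 1.06 ± 0.34, adjusted p = 0.0339, against 0.86 ± 0.53, adjusted p = 0.221 with them). HIST1H1T, the testis linker histone, stayed at 0.53 to 2.88 RPKM.

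Among the 17 H2A genes, 1 rose in each lineage (5.88%, against 21.9% and 17% of all tested genes) and none fell. This gene was HIST2H2AA4, at 1.06, 0.4 and 0.74 RPKM in hESC, 1.56, 2.2 and 2 RPKM in neuroectoderm, and 1.12, 2.9 and 2.01 RPKM in mesendoderm. All lineage libraries lay above hESC, at under 3 RPKM, and its near-identical copy HIST2H2AA3 (0.4 to 1.45 RPKM) did not pass, so the split of reads between them is uncertain. The log2 differences were 0.76 ± 0.23 (adjusted p = 0.0222) and 0.77 ± 0.23 (adjusted p = 0.0267). Without hESC replicate 2 or 3 the neuroectoderm call was lost (adjusted p = 0.0739 and 0.0569), and likewise without neuroectoderm replicate 2 or 3 (0.0653 and 0.0626). The mesendoderm call was lost without hESC replicate 2 or 3 (0.0908 and 0.067) or mesendoderm replicate 2 or 3 (0.0791 and 0.0801).

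Abundant H2A genes did not pass. HIST1H2AE averaged 241 ± 136 RPKM in hESC, 326 ± 195 in neuroectoderm and 320 ± 139 in mesendoderm. HIST1H2AD averaged 267 ± 80.6, 320 ± 65.2 and 215 ± 35 RPKM, and neuroectoderm lay above mesendoderm in every library although the difference missed the threshold (log2 difference 0.57 ± 0.28, adjusted p = 0.121). Without the libraries that stood apart HIST1H2AD was called higher in neuroectoderm than in mesendoderm (0.75 ± 0.19, adjusted p = 0.0122) and lower in mesendoderm than in hESC (-0.55 ± 0.19, adjusted p = 0.0483). HIST2H2AB had 258, 231 and 174 RPKM in hESC and 287, 307 and 346 RPKM in neuroectoderm, groups that did not overlap (log2 difference 0.52 ± 0.20, adjusted p = 0.0681). Without the 3 libraries that stood apart this rise was 0.62 ± 0.22 (adjusted p = 0.0453).

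Of 18 tested H2B genes none rose and 2 fell in each lineage (11.1%, against 22.3% and 18.1% of all tested genes). HIST1H2BB had 8.91, 4.24 and 8.65 RPKM in hESC, 1.25, 1.29 and 1.24 RPKM in neuroectoderm, and 1.59, 3.22 and 1.97 RPKM in mesendoderm. All derived libraries lay under all hESC libraries, and the neuroectoderm libraries under those of mesendoderm. Its log2 differences from hESC were -1.81 ± 0.26 (adjusted p = 0.000475) and -1.32 ± 0.26 (adjusted p = 0.00398). The direct difference between lineages was -0.50 ± 0.26 (adjusted p = 0.141), and -0.64 ± 0.16 (adjusted p = 0.0116) without the libraries that stood apart.

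HIST2H2BC, a pseudogene that overlaps an H4 gene, had 2.49, 2.17 and 2.38 RPKM in hESC, 0.97, 1.52 and 1.25 in neuroectoderm, and 1.59, 1.49 and 1.72 in mesendoderm. Both lineages were under hESC without overlap, by log2 differences of -0.58 ± 0.11 (adjusted p = 0.00205) and -0.36 ± 0.11 (adjusted p = 0.0263). The mesendoderm call was lost without hESC replicate 1 or 3 (adjusted p = 0.0843 and 0.0777) or without mesendoderm replicate 1, 2 or 3 (0.0662, 0.0739 and 0.0536). HIST2H2BE, HIST2H2BF and HIST3H2BB, at means of 35.9, 30.7 and 64.5 RPKM over all libraries, share stretches of their coding sequence with HIST2H2BC. Whether reads from these genes were counted for HIST2H2BC was not tested, so its values and both calls are uncertain. None of the 3 most abundant H2B genes was called: HIST1H2BI averaged 764 ± 275, 818 ± 403 and 693 ± 166 RPKM in the 3 groups, HIST1H2BC 483 ± 302, 558 ± 382 and 363 ± 156, and HIST1H2BH 367 ± 122, 492 ± 147 and 385 ± 85.1, all with overlapping groups.

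Among 14 H3 genes, HIST1H3B rose and HIST1H3C fell in neuroectoderm although the reading frames encode the same protein. That is 7.14% in each direction, against 21.9% and 22.3% of all tested genes. HIST1H3B had 363, 196 and 212 RPKM in hESC, 449, 494 and 459 RPKM in neuroectoderm, and 288, 429 and 302 RPKM in mesendoderm. Neuroectoderm lay above every library of the other groups. The log2 difference from hESC was 0.92 ± 0.27 (adjusted p = 0.0222), with adjusted p = 0.0741 without hESC replicate 2, 0.0853 without hESC replicate 3, and 0.0549 and 0.0561 without neuroectoderm replicates 2 and 3. HIST1H3C had 10.4, 2.04 and 3.12 RPKM in hESC, 0.16, 0.43 and 0.21 in neuroectoderm, and 0.75, 5.57 and 2.62 in mesendoderm. Neuroectoderm lay under all other libraries, in replicates 1 and 3 near the value of 3 reads (0.147 and 0.145 RPKM on 500 bases), while mesendoderm and hESC overlapped. Its log2 difference in neuroectoderm was -2.05 ± 0.55 (adjusted p = 0.0142), against -0.59 ± 0.55 (adjusted p = 0.445) in mesendoderm, and the direct difference of -1.46 ± 0.55 had an adjusted p of 0.0532.

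HIST1H3F was the most abundant H3 gene, at 656 ± 271, 1100 ± 169 and 823 ± 186 RPKM. Its rise in neuroectoderm missed the threshold (log2 difference 0.81 ± 0.33, adjusted p = 0.0747), but its share of summed H3 RNA, 30.4% to 31.7% in hESC, was 41.4%, 33.2% and 34.8% in neuroectoderm without overlap. HIST1H3G averaged 247 ± 110, 402 ± 160 and 330 ± 149 RPKM. HIST2H3C, a copy of HIST2H3A, had 0.58, 0.68 and 0.54 RPKM in hESC and 0.97, 1.61 and 3.41 RPKM in mesendoderm. Its log2 difference of 0.82 ± 0.27 (adjusted p = 0.0435) rests on values under 4 RPKM and was lost without hESC replicate 1, 2 or 3 (adjusted p = 0.103, 0.0842 and 0.11), neuroectoderm replicate 3 (0.0623) or mesendoderm replicate 2 or 3 (0.0751 and 0.106).

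HIST4H4, the only HIST4 member and on chromosome 12, was the member called between the lineages. It had 416, 210 and 242 RPKM in hESC, 131, 238 and 214 RPKM in neuroectoderm, and 485, 680 and 504 RPKM in mesendoderm. Every mesendoderm library lay above every library of the other groups. The direct log2 difference of neuroectoderm from mesendoderm was -1.54 ± 0.32 (adjusted p = 0.00383). Against hESC it was 0.99 ± 0.32 (adjusted p = 0.0412) in mesendoderm and -0.55 ± 0.32 (adjusted p = 0.201) in neuroectoderm. The call against hESC was lost without hESC replicate 2 or 3 (adjusted p = 0.132 and 0.126), neuroectoderm replicate 3 (0.059) or mesendoderm replicates 1, 2 or 3 (0.0713, 0.128 and 0.0864), while the call between lineages held in each of these.

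**Figure D4:**
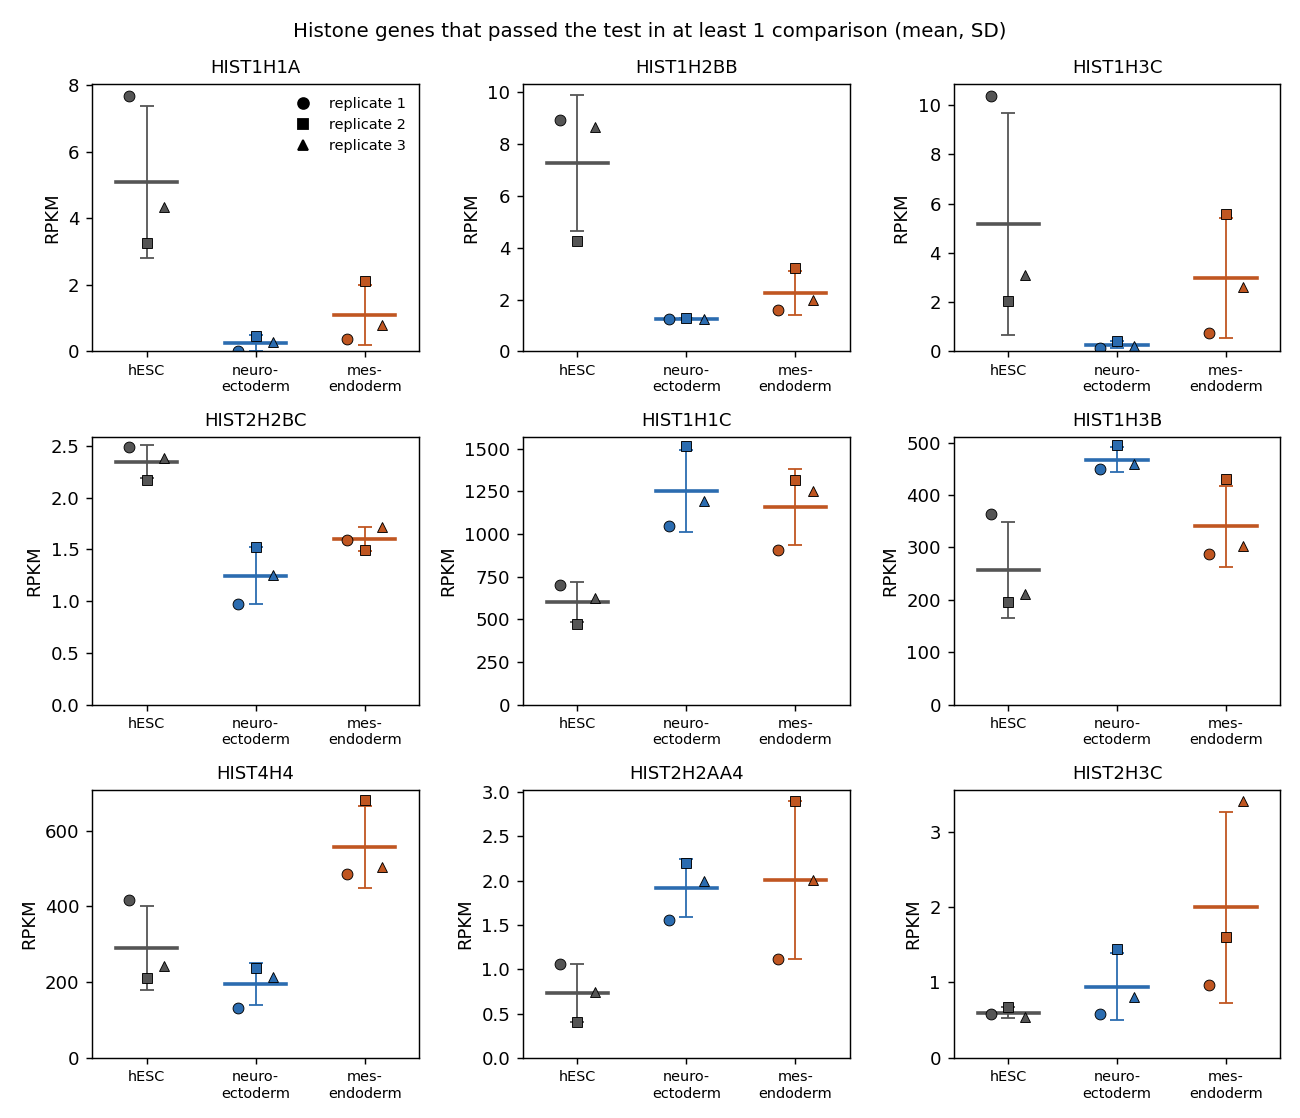
RPKM (linear axes from 0, scaled per gene) of the 9 histone genes that passed the test in at least 1 comparison, with symbols for replicates, a line at the mean and SD bars over 3 libraries. HIST1H1A, HIST1H2BB and HIST2H2BC are lower in both lineages, HIST1H1C is higher in both, and HIST4H4 is highest in mesendoderm, where its libraries sit between 485 and 680 RPKM.

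As a share of the summed H4 RNA of the same library, HIST4H4 made up 9.91%, 8.55% and 8.8% in hESC, 5.7%, 5.64% and 5.25% in neuroectoderm, and 17.1%, 15.1% and 13.5% in mesendoderm. The 3 groups did not overlap on this scale, and neuroectoderm lay under hESC. The 3 most abundant H4 genes had overlapping groups and were not called: HIST1H4D at 700 ± 290, 907 ± 426 and 748 ± 213 RPKM, HIST1H4C at 681 ± 77.1, 807 ± 83.2 and 657 ± 159, and HIST1H4E at 380 ± 135, 486 ± 174 and 469 ± 86.6. None of the other 13 tested H4 genes was called in any comparison. The gene next to HIST4H4 in the RefSeq annotation is H2AFJ, a replacement H2A gene, described here after its values were seen. It had 3.85, 1.88 and 2.96 RPKM in hESC, 0.6, 1.33 and 1.55 in neuroectoderm, and 3.16, 4.64 and 4.95 in mesendoderm, and was lower in neuroectoderm than in mesendoderm by -1.29 ± 0.24 (adjusted p = 0.00201) and than in hESC by -0.85 ± 0.24 (adjusted p = 0.0191).

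**Figure D5:**
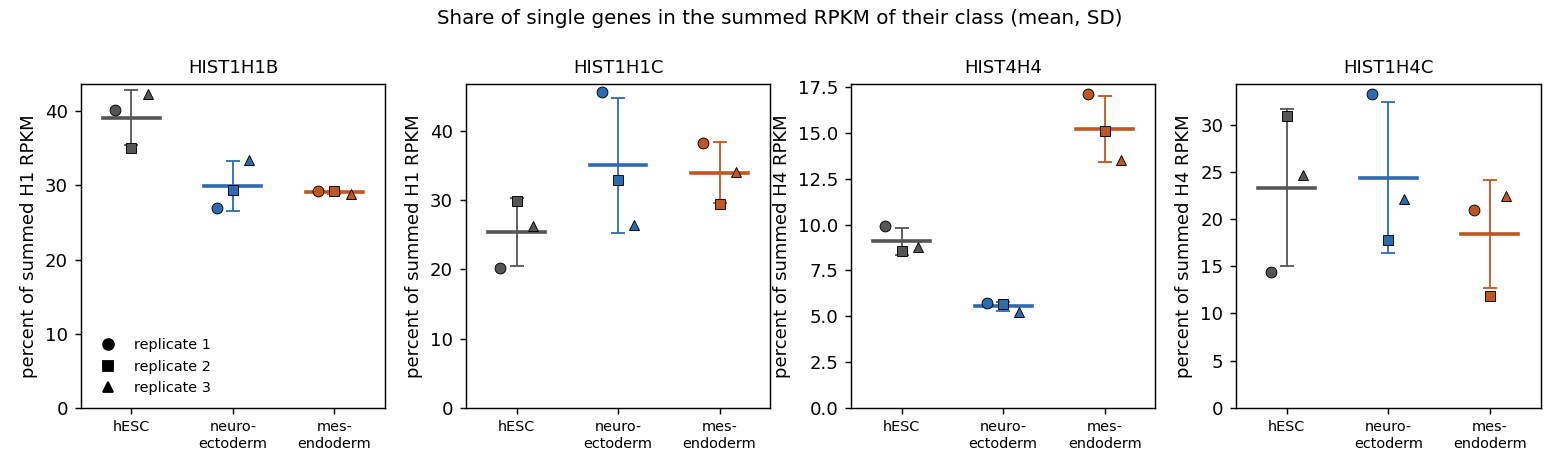
Percent of the summed RPKM of their class (linear axes from 0) held by HIST1H1B and HIST1H1C in H1 and by HIST4H4 and HIST1H4C in H4, per library, with the mean and SD over 3 libraries. HIST1H1B holds 35% or more in hESC and 33.5% or less in both lineages, HIST4H4 forms 3 separate groups, and the groups of HIST1H1C and HIST1H4C overlap.

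Over all 72 shares of class sums, 3 lay above and 18 below hESC without overlap in neuroectoderm. In mesendoderm against hESC 9 lay above and 11 below, and in neuroectoderm against mesendoderm 2 above and 16 below. Shares of a class are not independent of each other. Only members have such shares, so no rate over all genes stands beside these counts. With 3 libraries per group some separations arise by chance, and how many was not tested. HIST1H2AK held 4.67%, 3.27% and 3.72% of H2A RNA in hESC and 1.61% to 2.09% in neuroectoderm. HIST1H3J held 3.95% to 4.71% of H3 RNA in hESC, 1.8% to 3.22% in neuroectoderm and 4.75% to 7.55% in mesendoderm. HIST2H3D made up 5.05% to 7.18% in hESC and 1.52% to 4.44% in neuroectoderm, and HIST1H2BN 3.41% to 5.09% and 1.58% to 2.72% of H2B RNA. These 4 are among the 18 that lay under hESC in neuroectoderm, although none was called on its own level with all 9 libraries. They were chosen after their values were seen and were given no test.

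HIST1H1A, HIST1H2BB and HIST1H3C, which fell in neuroectoderm, lie close together at 1 end of the HIST1 cluster on chromosome 6. In annotation order the run is HIST1H1A, HIST1H3A, HIST1H4A, HIST1H4B, HIST1H3B, HIST1H2AB, HIST1H2BB and HIST1H3C, followed by HIST1H1C. No gene between them was called lower: HIST1H3B rose in neuroectoderm, and HIST1H3A, HIST1H4A, HIST1H4B and HIST1H2AB had log2 differences of 0.14, 0.18, -0.20 and 0.30 there. Neighbouring genes thus differed in direction. The 150 bases before the RefSeq start of the 4 called genes at the ends of this run are shown for comparison, from GRCh38.p14, 5′ to 3′ on the gene's strand, with motif matches in capitals. They lie at chr6:26017788-26017937, minus strand (HIST1H1A), chr6:26043714-26043863, minus strand (HIST1H2BB), chr6:26045234-26045383, plus strand (HIST1H3C), and chr6:26056471-26056620, minus strand (HIST1H1C).
HIST1H1A: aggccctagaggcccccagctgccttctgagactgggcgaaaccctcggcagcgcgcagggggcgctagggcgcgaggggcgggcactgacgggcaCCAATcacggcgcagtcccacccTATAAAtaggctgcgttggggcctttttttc
HIST1H2BB: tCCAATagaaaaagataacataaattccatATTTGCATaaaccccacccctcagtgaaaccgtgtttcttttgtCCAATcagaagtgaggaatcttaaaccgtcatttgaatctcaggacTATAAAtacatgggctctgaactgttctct
HIST1H3C: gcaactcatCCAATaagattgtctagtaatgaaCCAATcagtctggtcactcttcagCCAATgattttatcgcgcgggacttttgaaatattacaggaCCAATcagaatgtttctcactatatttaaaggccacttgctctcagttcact
HIST1H1C: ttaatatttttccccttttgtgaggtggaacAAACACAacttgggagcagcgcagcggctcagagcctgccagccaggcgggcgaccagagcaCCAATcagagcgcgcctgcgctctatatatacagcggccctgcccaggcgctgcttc
The letters searched on both strands were TATAAA (the TATA box), CCAAT (the CCAAT box), ATTTGCAT (the octamer, bound by the factor Oct-1) and AAACACA (the H1 box of linker histone genes). HIST1H1A holds TATAAA starting 31 and a CCAAT box 54 bases before the start. HIST1H2BB holds TATAAA at 30, CCAAT boxes at 76 and 149 and the octamer at 120 bases. HIST1H3C has 4 CCAAT boxes, and HIST1H1C has a CCAAT box at 57 and the H1 box at 119 bases. HIST1H1A also holds the H1 box in its 300-base window, outside the bases shown. A match is a description of letters, not a site of binding.

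Over 65 members with a 300-base promoter in the RefSeq table (250 bases before to 50 after the start), a TATA box stood in 66.2%, against 11.5% of all 35116 promoters, and a CCAAT box in 84.6% against 34.6%. The octamer stood in 14 of 18 H2B and 11 of 16 H2A promoters, 1 of 12 H3, and none of 6 H1 or 13 H4, against 1.77% of all promoters. The H1 box stood in 6 of 6 H1 promoters, 1 of 16 H2A and 2 of 12 H3, against 5.64%. H2A and H2B genes that face each other share part of this window, so their matches are not separate. The promoter of HIST4H4, at chr12:14771132-14771281, minus strand, held none of the 4 motifs in the 150 bases shown, while its 300-base window holds a TATA box outside them.
HIST4H4: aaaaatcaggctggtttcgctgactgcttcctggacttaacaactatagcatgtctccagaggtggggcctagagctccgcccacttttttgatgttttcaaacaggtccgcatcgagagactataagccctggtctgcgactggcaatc

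The annotation holds 13 pairs of members that start within 1000 bases of each other on opposite strands, 11 of them an H2A and an H2B gene. Of 12 pairs with a ratio in every library, 9 kept the same member higher in all 9 libraries and 3 did not. HIST1H2BC had 1.59 to 3.85 times the RPKM of HIST1H2AC over the 9 libraries, HIST2H2BE 0.143 to 0.459 times that of HIST2H2AC, and HIST1H2BG 0.922 to 1.83 times that of HIST1H2AE. The pair on the HIST3 cluster, HIST3H2A and HIST3H2BB, had negative differences in both lineages. HIST3H2BB had 131, 41.5 and 96.8 RPKM in hESC, 18.6, 54.1 and 58.9 in neuroectoderm, and 43.2, 79.8 and 56.3 in mesendoderm. Groups overlapped and the log2 differences of -1.03 ± 0.52 (adjusted p = 0.142) and -0.48 ± 0.52 (adjusted p = 0.523) did not pass. HIST3H2A had differences of -1.21 ± 0.62 and -0.57 ± 0.62, which did not pass either, although without the libraries that stood apart both genes were called lower in neuroectoderm. HIST1H2AA and HIST1H2BA, a pair known from testis that overlaps SLC17A1, stayed at 0 to 3.25 RPKM.

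Replication-independent (replacement) histones are for the most part made outside S phase as well, mostly from polyadenylated RNA. Of 12 tested, 5 rose and 1, H2AFJ, fell in neuroectoderm, and 3 rose and none fell in mesendoderm. The higher shares were 41.7% and 25%, against 21.9% and 17% of all tested genes. The lower share in neuroectoderm was 8.33%, against 22.3% of all tested genes. H2AFY2, a macroH2A gene, rose from 17.1 ± 1.77 RPKM to 73.6 ± 20.7 in neuroectoderm and 68.2 ± 2.97 in mesendoderm (log2 differences 2.01 ± 0.21 and 1.94 ± 0.21, adjusted p = 6.7e-05 and 0.000114). H1F0, the linker histone H1.0 of cells that leave the cycle, rose from 25.9 ± 2.08 to 84.4 ± 14.8 and 57.8 ± 6.44 RPKM (1.65 ± 0.16 and 1.12 ± 0.16, adjusted p = 5.03e-05 and 0.000705). CENPA, the H3 variant of centromeres, rose from 4.8 ± 0.2 to 10.8 ± 2.15 and 8.16 ± 1.24 RPKM (1.01 ± 0.15 and 0.65 ± 0.15, adjusted p = 0.000754 and 0.0104). For these 3 genes no library of either lineage fell into the hESC range. The linker histone genes H1F0 and HIST1H1C thus rose in both lineages while HIST1H1A fell. H2AFZ and H3F3A, the major replacement H2A.Z and H3.3 genes, were not called, at 204 ± 54.9, 171 ± 62.1 and 194 ± 24 RPKM and at 152 ± 46.4, 169 ± 87.6 and 182 ± 51.8 RPKM.

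The 8 members with reported polyadenylated transcripts include HIST1H1C, the only 1 of them called (1 higher in each lineage, none lower). That is 12.5% higher in each lineage, against 21.9% of all tested genes in neuroectoderm and 17% in mesendoderm. Their median log2 difference was 0.34 in neuroectoderm and 0.48 in mesendoderm, against 0.14 and 0.28 for all 69 tested members and -0.02 for all tested genes in both. The median SE of these 8 genes was 0.60.

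Genes that cut, bind and degrade histone RNA were called in both directions, in no comparison more often than all tested genes. SLBP, which binds the stem-loop, had 22.3, 19.6 and 20.3 RPKM in hESC, 18.8, 21.2 and 23.1 in neuroectoderm, and 37.2, 31.8 and 34 in mesendoderm. It was the 1 gene of its list that rose in mesendoderm (log2 difference 0.70 ± 0.12, adjusted p = 0.0018), and was lower in neuroectoderm than in mesendoderm by -0.68 ± 0.12 (adjusted p = 0.00134). Among 19 tested 3′ end processing genes, 4 (21.1%, against 21.9% of all tested genes) rose in neuroectoderm, among them LSM11 of the U7 particle (2.12 ± 0.228 to 4.08 ± 0.711 RPKM, 0.70 ± 0.14, adjusted p = 0.00336) and CASP8AP2, the histone locus body protein FLASH (5.88 ± 1.12 to 9.42 ± 1.27 RPKM, 0.61 ± 0.14, adjusted p = 0.00631). The 2 that fell (10.5%, against 22.3% of all tested genes), SNRPG and SNRPE, encode Sm proteins that splicing particles also hold. Of 17 decay genes, 2 rose in neuroectoderm, the exonuclease XRN1 (0.79 ± 0.14, adjusted p = 0.00167) and the terminal uridylyltransferase ZCCHC11 (0.59 ± 0.13, adjusted p = 0.00571), and 2 fell, LSM3 (-1.37 ± 0.14, adjusted p = 7.39e-05) and LSM7 (-0.78 ± 0.21, adjusted p = 0.0151). In mesendoderm 2 fell (LSM3 and SMG1) and none rose. The higher share of decay genes was 11.8% in neuroectoderm, and the lower share was 11.8% in each lineage. Among all tested genes 21.9% rose in neuroectoderm, 22.3% fell there and 18.1% fell in mesendoderm.

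Of 12 genes for transcription at the histone loci, 1 rose and 3 fell in neuroectoderm and 1 rose and 4 fell in mesendoderm. The lower shares were 25% and 33.3%, against 22.3% and 18.1% of all tested genes. The higher share was 8.33% in each lineage, against 21.9% and 17% of all tested genes. NPAT, the coactivator of histone genes at the cyclin E and CDK2 step, was not called, at 4.03 ± 0.153, 4.05 ± 0.826 and 4.41 ± 0.745 RPKM. CDK2 rose in both lineages (0.37 ± 0.12, adjusted p = 0.0355, and 0.53 ± 0.12, adjusted p = 0.00948) and CCNE1, its cyclin partner, fell in both (-0.68 ± 0.14, adjusted p = 0.00373, and -0.41 ± 0.14, adjusted p = 0.0454). POU2F1, which encodes the octamer-binding factor Oct-1, fell in mesendoderm from 12.2 ± 1.92 to 7.73 ± 0.561 RPKM (-0.59 ± 0.13, adjusted p = 0.00723). Its difference in neuroectoderm was 0.30 ± 0.13 (adjusted p = 0.0913).

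Histone chaperones escort histones to DNA. Of 22 tested, 5 fell and none rose in neuroectoderm, and 3 fell and none rose in mesendoderm. That is 22.7% and 13.6% lower, against 22.3% and 18.1% of all tested genes. NASP, a carrier of H1 and H3-H4, fell from 142 ± 1.85 RPKM to 85.1 ± 10.7 and 77.4 ± 0.953 (-0.74 ± 0.13 and -0.87 ± 0.13, adjusted p = 0.00186 and 0.00101). IPO4, an importer of H3-H4, fell in neuroectoderm (-0.94 ± 0.20, adjusted p = 0.00449), as did ASF1A (-0.59 ± 0.13, adjusted p = 0.00596) and HAT1 (-0.43 ± 0.10, adjusted p = 0.00765). In the S phase list of 28, 2 rose and 5 fell in neuroectoderm and 2 rose and 6 fell in mesendoderm. The lower genes make up 17.9% and 21.4% of the list, near the 22.3% and 18.1% of all tested genes. The higher genes make up 7.14% in each lineage, against 21.9% and 17% of all tested genes. TYMS, thymidylate synthase, rose in both (1.13 ± 0.25 and 0.90 ± 0.25, adjusted p = 0.00566 and 0.0207). RRM2 and CDC6 fell in neuroectoderm (-0.96 ± 0.19 and -0.78 ± 0.11, adjusted p = 0.00324 and 0.000414), and POLA1 fell in mesendoderm (-0.52 ± 0.10, adjusted p = 0.00408). The S phase list had median log2 differences of -0.22 and -0.16.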

How the data were processed

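Total RNA was taken from 9 H9 libraries, 3 per group, with DNase treatment and ribosomal RNA depletion before an Ion Total RNA-Seq library kit, per the labels' protocols. The RPKM values analysed are those the authors deposited in 1 table of 38759 RefSeq transcripts. Per the submitters' processing notes, reads were handled with TopHat, TopHat2 2.0.13 and Bowtie2 and build hg19. Which counter was run, whether it used strand and how it treated reads with several matches is not given in the sources used here, so 13 members that overlap another annotated gene are uncertain too. RPKM compares levels between genes per length, but its denominator lets changes of a few abundant RNAs move all others.

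The table was read as log2(RPKM + 1), a scale that understates changes of low genes, with 1 transcript per symbol. The 14473 symbols with a mean of at least 0.5 RPKM over the libraries entered 1 linear model over all 9 libraries in limma (version 3.58.1, under R 4.3.3), which allowed the variance to follow the mean. Adjusted p-values are Benjamini-Hochberg over all tested genes, and a gene was called at an adjusted p under 0.05. The pipeline was tested on simulated data. Levels are mean ± SD in RPKM, n = 3. Ratios of class sums have no test. Their replicate SD pools the within-group SDs of the log2 sums. Named genes are all members called in any comparison plus the 3 most abundant of each class, and up to 4 called members of each other list. The values of 1 gene of the S phase list are not reported here. Other members named (HIST1H1T, the HIST3 genes, neighbours and divergent pairs, and single shares) were chosen after their values were seen. The members and lists were chosen with earlier results of these data known. Denominators were read from short single-exon small RNAs in each library, where low values were whole reads within 0.1 read in 100% of 20 to 42 values. Sequences are from GENCODE 29 and RefSeq (GRCh38), not from hg19, with which no coordinates were mixed. All 72 members matched RefSeq by accession and 65 a promoter.

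Alternatives changed the pseudocount, filter, scaling, transcript choice, variance trend, groups fitted, replicate block, copy pairs and the libraries used.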

Additional observations from a re-analysis of the deposited data

Results flagged for a closer look

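HIST4H4 was picked out because its change differed between the lineages by a direct test. The change from hESC in neuroectoderm minus that in mesendoderm was -1.54 on the log2(RPKM + 1) scale (limma, adjusted p = 0.00383). It was lower in neuroectoderm than in mesendoderm in 3 of 3 libraries against 3, and its groups did not overlap as a share of H4 RNA either. Groups of 3 libraries were not examined for single outlying values.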

How the results depend on the processing

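No log2 difference of a called member changed sign under any alternative. HIST1H1A, HIST1H2BB, HIST1H1C, HIST1H3C and HIST2H2BC in neuroectoderm, HIST1H1A and HIST1H2BB in mesendoderm, and HIST4H4 between the lineages passed in every setting that tested them. HIST2H2BC, at a mean of 1.73 RPKM, was not tested with a minimum of 2 RPKM. Its values stay uncertain in every setting, because more abundant H2B genes share stretches with it. Class and cluster ratios moved by less than their replicate SD in each setting, including leaving out single libraries, which was chosen after seeing the data. Ratios near 0, such as those of H2B and H2A, changed sign in some of these. The other calls were lost in 4 to 8 settings, most of which leave a group with 2 libraries.

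Without the 3 libraries that stood apart the counts became 9 higher and 9 lower in neuroectoderm against hESC, 7 lower in mesendoderm against hESC, and 2 higher and 6 lower in neuroectoderm against mesendoderm. That choice of libraries drew in part on the members' own levels. Without a mean-variance trend 5 members were higher in neuroectoderm against hESC. Higher members in mesendoderm against hESC numbered 2 with no filter and 2 with a minimum of 2 RPKM. Lower members in neuroectoderm against mesendoderm numbered 3 with a pseudocount of 0.1, 2 with 0.5, 2 after median-ratio rescaling and 2 when only the groups compared were fitted. The cause was not tested. Leaving out 1 library gave 1 to 10 higher and 4 to 6 lower members in neuroectoderm against hESC, 0 to 4 and 2 to 3 in mesendoderm against hESC, and 0 to 1 and 1 to 4 in neuroectoderm against mesendoderm. In neuroectoderm against hESC, 10 were higher without neuroectoderm replicate 1, and 1 without hESC replicate 2 or 3 or neuroectoderm replicate 2 or 3. In mesendoderm against hESC, 0 were higher without hESC replicate 2 or 3 or mesendoderm replicate 2 or 3, and 2 without neuroectoderm replicate 3. Lower in neuroectoderm than mesendoderm were 4 without mesendoderm replicate 1, 3 without hESC replicate 2, and 2 without hESC replicate 1 or neuroectoderm replicate 2. Higher there was 1 without neuroectoderm replicate 1.

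With the replicate number as a block, 2 were higher and 4 lower in neuroectoderm against hESC, 1 and 2 in mesendoderm against hESC, and 0 and 1 in neuroectoderm against mesendoderm. Deviations of same-numbered libraries correlated between -0.738 and 0.401 over tested genes. These deviations also moved with base composition, so they cannot settle whether the numbers pair the libraries. Depth limits statements on members near the value of 3 reads, such as HIST1H3C in neuroectoderm replicates 1 and 3.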
